A study of Mus musculus with 16 samples.

Results

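The mouse Hox genes are described here as 1 family of 38 rows, taken by gene symbol (a cluster letter A to D and a paralog number) from a deposited table of 33531 genes. The HoxA cluster gave 11 rows, HoxB 10, HoxC 9 and HoxD 8. Hoxd4, which RefSeq lists in HoxD, had no row among them. The table holds RNA-seq levels in FPKM (read fragments divided by transcript length in kilobases and by the size of the library) for 16 libraries in 8 groups of 2, 1 group for each pairing of site (yolk sac, embryo), sorted cell type (HE, EC) and stage (E10.5, E9.5). Every conceptus came from a mating of a superovulated B6C3F1 female with a male homozygous for Runx1tm4Dow, a Runx1-GFP allele, so all groups share this cross and none is without the reporter. HE are hemogenic endothelial cells, sorted as Runx1-GFP+, CD31+, kit lo/-, CD41- and CD45-, and EC are endothelial cells sorted as Runx1-GFP negative, CD31+, kit-, CD41- and CD45-. The embryo samples are what was left of the trunk after the head, heart, lung, liver, gut, tail and limb buds had been cut away, which is the aorta-gonad-mesonephros region with pieces of somite and the vitelline and umbilical vessels. Nothing in the labels ties the 2 libraries of a group to different litters or sorts, and p-values here rest on a spread between samples that may be technical.

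Hox genes encode homeodomain transcription factors that give cells their position along the head-to-tail axis of the trunk. They lie in 4 clusters, and within a cluster genes of low paralog number are expressed earlier and further towards the head than genes of high number. In blood, Hoxa9, Hoxa10, Hoxb4 and their neighbours are known for roles in stem and progenitor cells, and the PBX and MEIS proteins bind DNA together with HOX proteins.

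The sorted populations were checked against 16 general endothelial genes and against the reporter gene first. Summed over these 16 genes, the level was 1949 to 3633 FPKM in yolk sac EC, 2236 to 3105 in embryo HE and 2540 to 3755 in embryo EC. In yolk sac HE it was 682 and 221 at E10.5 and 2173 and 899.7 at E9.5, so both E10.5 libraries stood below every other library. Runx1 itself was 2.19 and 2.17 FPKM in the HE libraries of the E10.5 yolk sac, against 2.60 and 2.04 in its EC libraries, so the gene that defines the sort did not separate them. The counts of called Hox genes that draw on these libraries are therefore also given without both of them, and of 133 single calls that could be refitted that way 15 were lost. Without them the HE site comparison, HE against EC in the yolk sac and the site by cell type interaction rest on E9.5 alone. The yolk sac stage comparison and the site by stage interaction then rest on EC alone. Libraries had summed FPKM of 586501 to 785252 and 11639 to 12527 genes at or above 1 FPKM, and 1 of the E10.5 yolk sac HE libraries (replicate 2) listed 12 of the 38 Hox genes at 0. In tissue mixtures and sorts such as these, fewer cells of a type and less RNA per cell cannot be told apart.

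The stretches upstream of 4 Hox genes are printed to set a pair of genes that kept higher yolk sac levels beside a pair that stayed low there. Hoxb8 and Hoxb4 kept means of several FPKM in yolk sac EC, and no yolk sac library exceeded 3.54 FPKM for Hoxa9 or 1.22 FPKM for Hoxa7. Each is the 250 bases before the gene start in RefSeq (build GRCm38.p6), 5′ to 3′ on the gene's strand, at chr11:96281655-96281904 (+) for Hoxb8, chr11:96318017-96318266 (+) for Hoxb4, chr6:52227371-52227620 (-) for Hoxa9 and chr6:52218574-52218823 (-) for Hoxa7. Capitals mark the motif TTTATG, the core bound by Cdx factors, and the motif TGATNNAT, the composite core of PBX with HOX, each on either strand, and where matches overlap the capitals run together.
Hoxb8: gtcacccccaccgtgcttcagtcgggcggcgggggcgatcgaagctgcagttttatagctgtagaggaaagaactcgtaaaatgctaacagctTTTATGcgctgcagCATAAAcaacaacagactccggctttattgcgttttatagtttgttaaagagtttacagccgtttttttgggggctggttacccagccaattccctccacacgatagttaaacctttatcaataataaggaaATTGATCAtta
Hoxb4: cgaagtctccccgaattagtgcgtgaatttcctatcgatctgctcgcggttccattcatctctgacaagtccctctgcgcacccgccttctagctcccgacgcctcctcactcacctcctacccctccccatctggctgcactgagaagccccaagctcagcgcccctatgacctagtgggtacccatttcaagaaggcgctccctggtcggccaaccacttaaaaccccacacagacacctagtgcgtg
Hoxa9: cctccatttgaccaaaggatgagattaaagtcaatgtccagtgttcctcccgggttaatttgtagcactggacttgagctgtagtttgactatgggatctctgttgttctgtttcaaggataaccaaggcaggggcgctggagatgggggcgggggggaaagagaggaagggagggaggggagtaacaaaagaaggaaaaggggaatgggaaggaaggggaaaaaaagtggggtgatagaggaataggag
Hoxa7: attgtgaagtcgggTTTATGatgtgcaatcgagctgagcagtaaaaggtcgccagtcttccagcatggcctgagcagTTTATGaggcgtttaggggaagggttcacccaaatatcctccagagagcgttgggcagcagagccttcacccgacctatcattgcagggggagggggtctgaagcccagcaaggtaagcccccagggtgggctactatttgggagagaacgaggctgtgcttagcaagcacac
TTTATG was found in 4 of 23 Hox promoters in the table (17.39%), those of Hoxa7, Hoxb8, Hoxd3 and Hoxd11, against 10.76% of all 32851 promoters of this length. TGATNNAT was found in 4 of 23 (17.39%), against 7.683% of all promoters. The Hoxb8 stretch held TTTATG on both strands and 1 match to TGATNNAT, the Hoxa7 stretch held TTTATG at 2 places, and neither motif was in the printed stretches of Hoxa9 and Hoxb4. The 23 Hox promoters had a median of 13 CpG, against 6 in all promoters. A match describes the letters only, and factor binding was not measured here.

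The most abundant Hox gene differed between the sites in HE and was Hoxb8 at both sites in EC. In yolk sac HE the highest mean level was that of Hoxc8, a gene of thoracic segments, at 27.5 ± 9.55 FPKM (SD, n = 4), and in yolk sac EC that of Hoxb8, at 14.7 ± 2.52 FPKM. In the embryo Hoxb8 led in both cell types, at 32.2 ± 3.26 FPKM in HE and 27.4 ± 5.77 FPKM in EC. A mean of at least 1 FPKM was reached by 18 of 38 Hox genes in yolk sac HE and 20 in yolk sac EC, against 32 in embryo HE and 31 in embryo EC. Rows of Hoxb13, Hoxc12 and Hoxc13 stayed below 1 FPKM in all 16 libraries, with highest values of 0.152, 0.250 and 0.308, and Hoxd12 reached 0.926. These 4 genes and Hoxa13 (highest 1.39 FPKM, in a yolk sac library) did not reach the level set for testing, 1 FPKM in at least 2 libraries. The other 33 Hox genes were tested, 10 of HoxA, 9 of HoxB, 7 of HoxC and 7 of HoxD. Of these, Hoxa2, Hoxa6, Hoxb1, Hoxc11, Hoxd1, Hoxd10, Hoxd11 and Hoxd13 stayed below 1 FPKM in every yolk sac library. Hoxa4, Hoxa7, Hoxd3 and Hoxd9 reached it in a single yolk sac library. All of these entered the tests through embryo libraries, so a lower yolk sac level was partly set by the filter. Their part in the counts of lower genes below is not separate support.

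**Figure D1:**
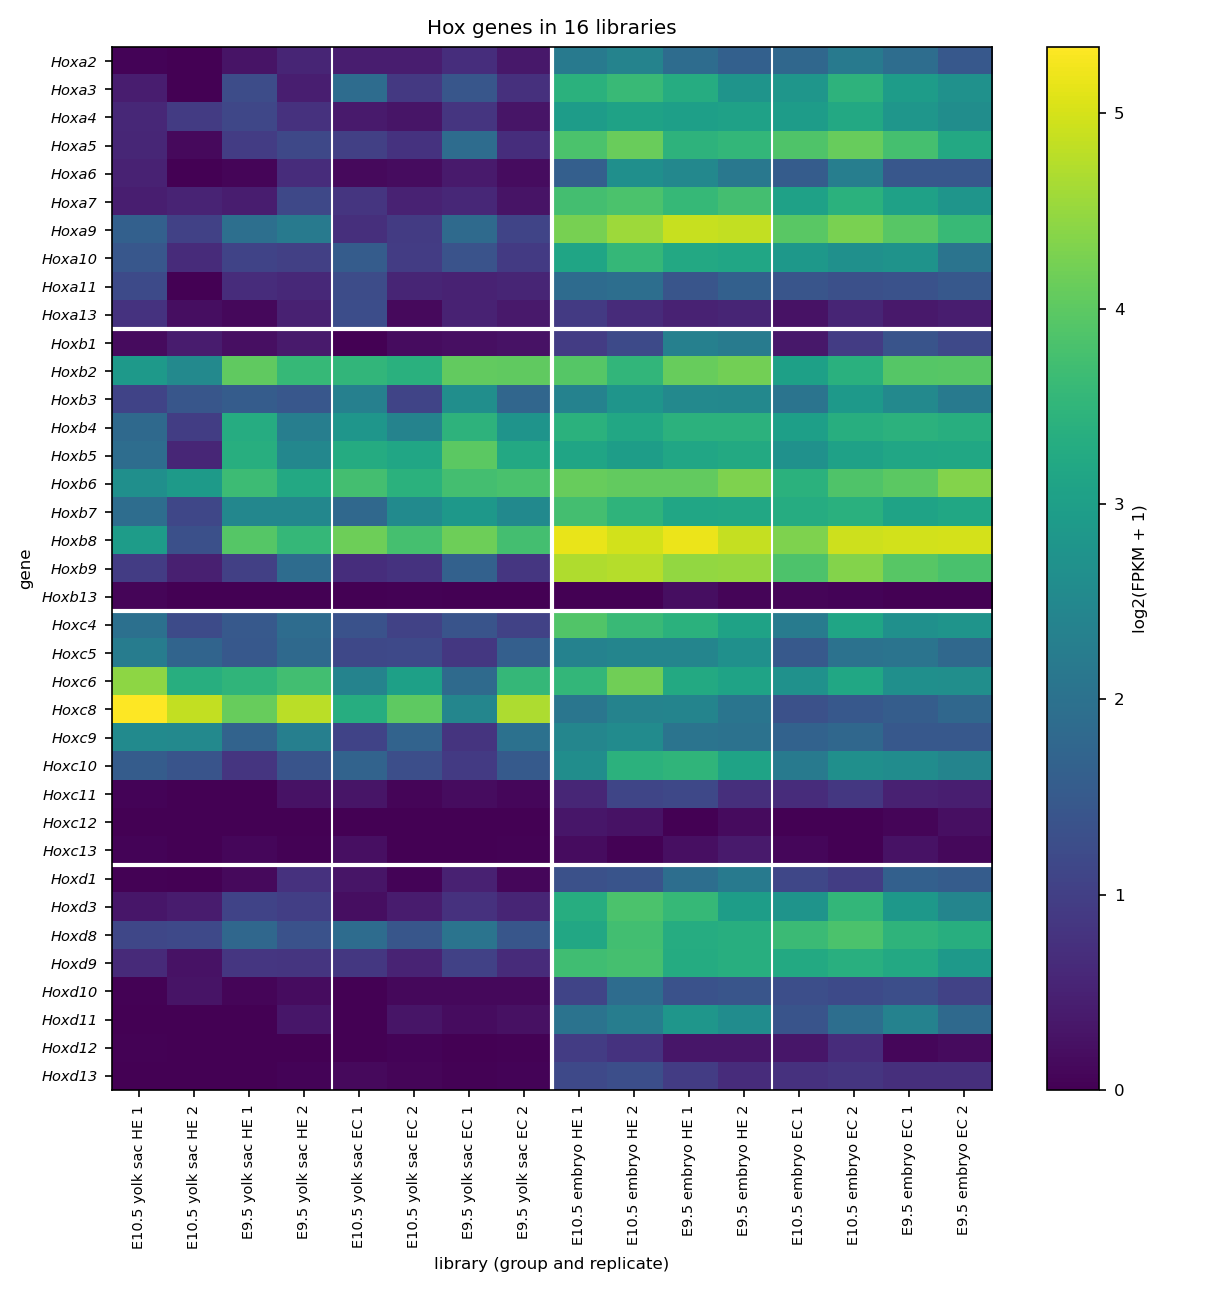
Level of Hox genes (rows, by cluster and paralog number) in each of the 16 libraries (columns), as log2(FPKM + 1) in colour. White lines part the clusters, the sites and the cell types, and the yolk sac side is dark for HoxA and HoxD while part of HoxB and Hoxc6 and Hoxc8 stay bright.

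Summed by cluster, HoxA and HoxD were low in every yolk sac library. The HoxA sum was 3.86 to 13.9 FPKM in the 8 yolk sac libraries, against 51.4 to 97.9 in the 8 embryo libraries, and the HoxD sum was 2.02 to 5.53 against 26.2 to 48.2. Neither pair of ranges overlapped. The HoxB sum was 50.7 to 83.7 FPKM in yolk sac EC and 17.8 to 67.0 in yolk sac HE, against 114.8 to 125 in embryo HE and 73.9 to 107.9 in embryo EC, so yolk sac EC and embryo EC overlapped. The HoxC sum overlapped between the sites throughout, at 11.3 to 73.7 FPKM in yolk sac libraries against 18.8 to 53.2 in embryo libraries. Over all 38 genes the sum was 70.7 to 116.7 FPKM in the yolk sac and 187.8 to 314.2 in the embryo. HoxB made up 25.1% to 73.1% of it in the yolk sac, against 36.6% to 51.8% in the embryo, and HoxA 5.46% to 12.2% against 24.7% to 34.2%.

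**Figure D2:**
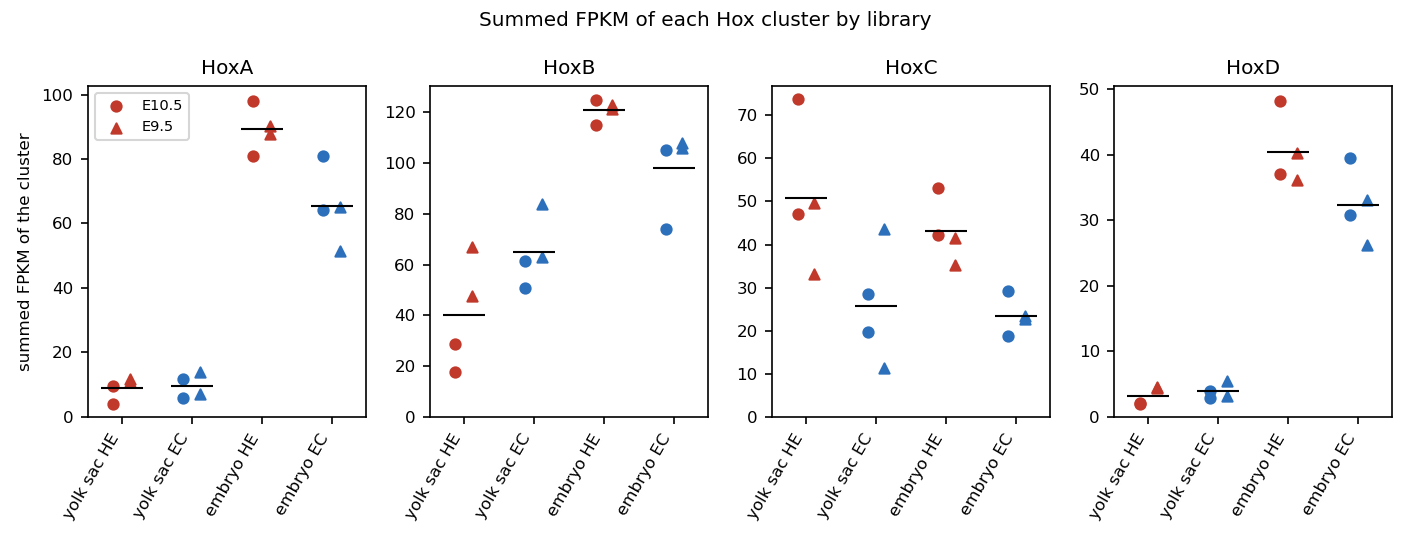
Summed FPKM of all rows of each Hox cluster in each library, by site and cell type (HE red, EC blue, E10.5 circles, E9.5 triangles), with the mean of 4 libraries as a bar. HoxA and HoxD sums of the yolk sac lie below all embryo sums, and HoxC sums overlap.

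The first comparison asked how the Hox genes of yolk sac EC differ from those of embryo EC, with the stages averaged. In yolk sac EC 25 of the 33 tested Hox genes fell and 1, Hoxc8, rose (limma on log2(FPKM + 1), Benjamini-Hochberg adjusted p under 0.05 over 13955 genes), where 34.1% of all tested genes were called, 18.7% lower and 15.4% higher. The median log2 difference was −1.11 over the Hox genes and −0.10 over all tested genes. Of the 38 rows, 25 had all 4 yolk sac EC values below all 4 embryo EC values, 1 had them all above, and 12 overlapped. This order was not counted over all genes, so it only describes these rows. By cluster, 10 of 10 HoxA and 7 of 7 HoxD genes fell, against 4 of 9 HoxB genes and 4 of 7 HoxC genes. Among the HoxD genes only Hoxd8 would have passed the test filter on yolk sac values.

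**Figure D3:**
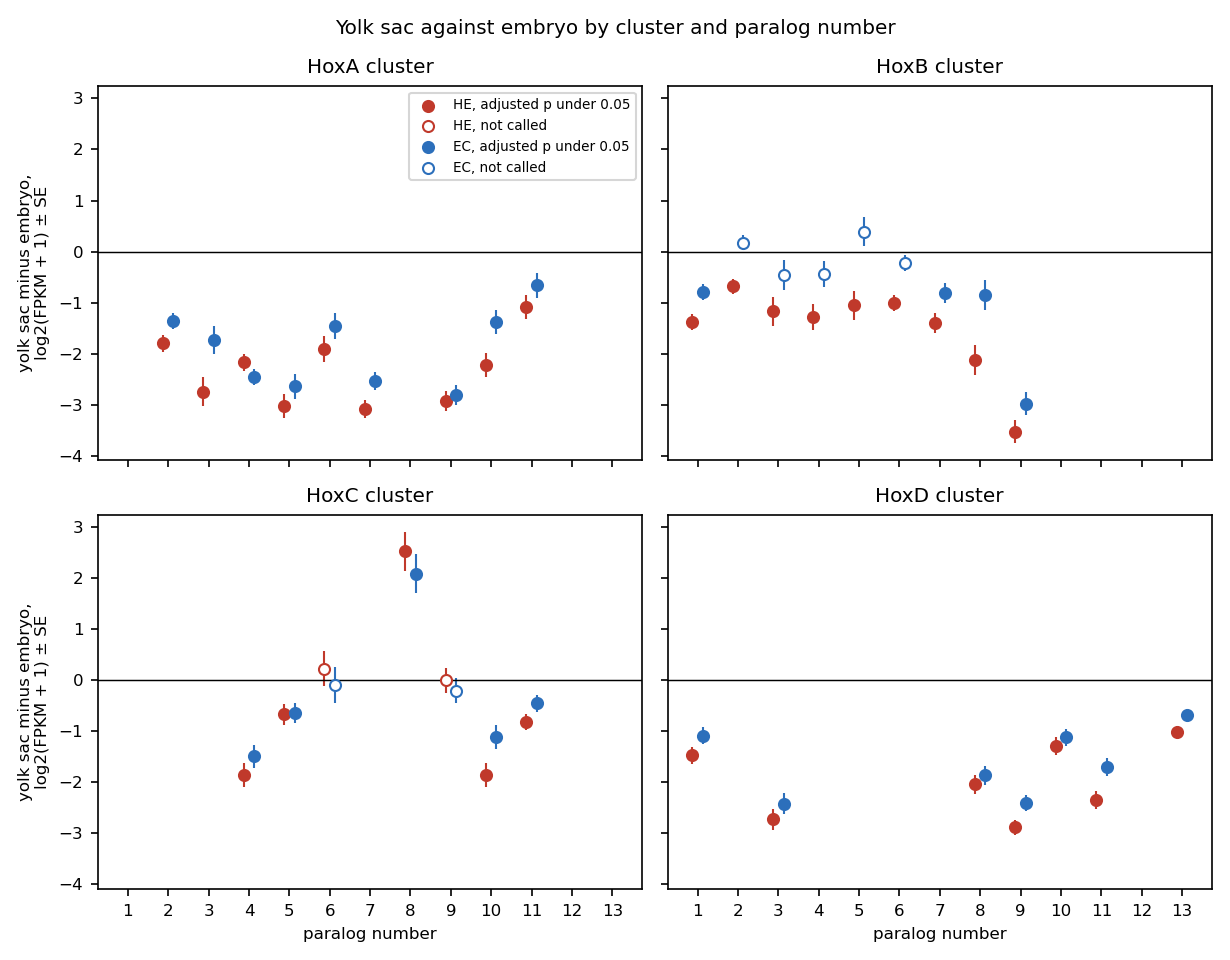
Yolk sac minus embryo on the log2(FPKM + 1) scale with its SE, by cluster (panels) and paralog number (x axis), for HE in red and EC in blue, filled where the adjusted p was under 0.05. HoxA and HoxD lie below 0 throughout, Hoxb2 to Hoxb6 of EC lie near 0, and Hoxc8 is the 1 gene called above 0 in both cell types.

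Within HoxA the differences were largest for Hoxa9, Hoxa5, Hoxa7 and Hoxa4. Hoxa9, a regulator of axial identity and of blood progenitors, had 0.647 and 0.904 (E10.5) and 2.57 and 1.15 (E9.5) FPKM in yolk sac EC, against 14.8 and 18.4 (E10.5) and 14.5 and 11.1 (E9.5) in embryo EC. The lowest embryo value was several times the highest yolk sac value, and the log2 difference was −2.80 ± 0.20 (SE, adjusted p = 1.23e-06 by limma). Hoxa5, which patterns the cervical and upper thoracic region and the lung, had 1.02 and 0.715 (E10.5) and 2.68 and 0.633 (E9.5) FPKM in yolk sac EC, against 13.5 and 16.0 (E10.5) and 12.7 and 8.31 (E9.5) in embryo EC. Hoxa7, a gene of thoracic vertebrae, had 0.767 and 0.418 (E10.5) and 0.506 and 0.223 (E9.5) FPKM in yolk sac EC, against 7.36 and 9.69 (E10.5) and 7.34 and 5.90 (E9.5) in embryo EC. Neither pair of groups overlapped, with log2 differences of −2.64 ± 0.24 for Hoxa5 and −2.53 ± 0.18 for Hoxa7 (limma adjusted p = 9.12e-06 and 1.41e-06).

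Hoxa4, a gene of the neck vertebrae, had 0.297 and 0.227 (E10.5) and 0.758 and 0.239 (E9.5) FPKM in yolk sac EC, against 6.75 and 8.37 (E10.5) and 6.04 and 5.14 (E9.5) in embryo EC. Hoxa3, needed for the thymus and parathyroid, had 2.68 and 0.860 (E10.5) and 1.68 and 0.681 (E9.5) FPKM in yolk sac EC, against 5.96 and 9.90 (E10.5) and 6.70 and 5.52 (E9.5) in embryo EC. Both were lower in yolk sac EC in every library, by log2 differences of −2.46 ± 0.16 and −1.74 ± 0.28. The RefSeq span of Hoxa3 overlaps those of Hoxa4, Hoxa5 and Hoxa6, and since the sources used here do not give the use of strand or the treatment of shared reads, the split of reads among these 4 genes is uncertain. Other genes at the anterior and posterior sides had smaller differences. Hoxa2, which patterns the second pharyngeal arch, had 0.342 and 0.354 (E10.5) and 0.622 and 0.267 (E9.5) FPKM in yolk sac EC, against 2.43 and 3.54 (E10.5) and 2.76 and 1.76 (E9.5) in embryo EC, a difference of −1.36 ± 0.16. Hoxa10, a posterior gene also known from blood progenitors, had 1.94 and 0.944 (E10.5) and 1.59 and 0.873 (E9.5) FPKM in yolk sac EC, against 6.19 and 5.40 (E10.5) and 5.70 and 3.15 (E9.5) in embryo EC, a difference of −1.38 ± 0.23. None of these groups overlapped. Hoxa6 differed by −1.47 ± 0.25 and Hoxa11 by −0.66 ± 0.24, and the call of Hoxa11 (limma adjusted p = 0.0475) was lost in 13 of 16 runs that left out 1 library, where its adjusted p was up to 0.156.

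HoxD followed HoxA at lower levels. Hoxd8 was the most abundant, with 2.71 and 1.71 (E10.5) and 3.17 and 1.71 (E9.5) FPKM in yolk sac EC, against 11.4 and 13.2 (E10.5) and 10.1 and 9.23 (E9.5) in embryo EC. Hoxd9, a gene of the lumbar region and forelimb, had 0.818 and 0.445 (E10.5) and 1.03 and 0.567 (E9.5) FPKM in yolk sac EC, against 8.47 and 9.30 (E10.5) and 8.39 and 6.28 (E9.5) in embryo EC. Hoxd3, needed for the first neck vertebrae, had 0.141 and 0.322 (E10.5) and 0.695 and 0.470 (E9.5) FPKM in yolk sac EC, against 5.81 and 10.7 (E10.5) and 6.19 and 4.36 (E9.5) in embryo EC. The yolk sac values of all of these were below every embryo value, and the log2 differences were −1.86 ± 0.19, −2.41 ± 0.15 and −2.42 ± 0.21 (limma adjusted p = 2.05e-05, 6.48e-07 and 6.87e-06). The RefSeq span of Hoxd3 overlaps those of Hoxd4 and other genes, and that of Hoxd8 overlaps Gm38462, so shared reads are uncertain there too. Hoxd11, a gene of the forearm and kidney whose RefSeq span overlaps that of Hoxd10, was listed at 0 in 1 E10.5 yolk sac EC library, with 0 and 0.240 (E10.5) and 0.128 and 0.178 (E9.5) FPKM in yolk sac EC, against 1.61 and 2.81 (E10.5) and 4.18 and 2.56 (E9.5) in embryo EC, and differed by −1.70 ± 0.18. Hoxd10 (−1.12 ± 0.17), Hoxd1 (−1.09 ± 0.17) and the digit gene Hoxd13 (−0.68 ± 0.12) fell too, each with a mean under 2 FPKM in embryo EC, where the log2(FPKM + 1) scale understates a change.

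HoxB was split. Hoxb2 (0.17 ± 0.15), Hoxb3 (−0.45 ± 0.29), Hoxb4 (−0.43 ± 0.25), Hoxb5 (0.39 ± 0.28) and Hoxb6 (−0.23 ± 0.16), which are neighbours in the RefSeq gene order, were not called in EC (limma adjusted p = 0.403, 0.251, 0.211, 0.318 and 0.288). Hoxb5, a gene of the shoulder level, had 8.68 and 7.89 (E10.5) and 15.03 and 8.37 (E9.5) FPKM in yolk sac EC, against 5.49 and 7.36 (E10.5) and 7.92 and 8.13 (E9.5) in embryo EC, and the groups overlapped. Hoxb4, which expands blood stem cells when overexpressed, averaged 6.49 ± 2.43 FPKM in yolk sac EC and 8.83 ± 1.20 in embryo EC (SD, n = 4 each). A missed threshold does not show that these levels were alike. The genes on either side of this block fell: Hoxb1, a gene of the fourth hindbrain segment (−0.80 ± 0.16), Hoxb7 (−0.81 ± 0.20), Hoxb8 (−0.84 ± 0.29) and Hoxb9 (−2.98 ± 0.23).

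Hoxb9 and Hoxb8, neighbours that both pattern the thorax, stood far apart. Hoxb9 had 0.632 and 0.730 (E10.5) and 2.17 and 0.806 (E9.5) FPKM in yolk sac EC, against 13.3 and 19.3 (E10.5) and 14.5 and 12.9 (E9.5) in embryo EC, the largest difference of the family in EC (limma adjusted p = 2.39e-06). Hoxb8 had 16.9 and 12.6 (E10.5) and 16.8 and 12.4 (E9.5) FPKM in yolk sac EC, against 18.8 and 29.7 (E10.5) and 30.4 and 30.8 (E9.5) in embryo EC. Its groups did not overlap, but the lowest embryo library lay close to the highest yolk sac ones, and its call (limma adjusted p = 0.0429) was lost in 13 of 16 runs that left out 1 library, where the adjusted p was up to 0.147. Hoxb3 overlaps Hoxb4 and the antisense gene Hoxb3os, Hoxb2 overlaps Hoxb3os, and Hoxb5 and Hoxb6 overlap Hoxb5os in RefSeq, so part of this block carries the same uncertainty over shared reads, while Hoxb1, Hoxb7, Hoxb8 and Hoxb9 overlap no other gene.

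HoxC held the exception. Hoxc8 had 9.01 and 15.2 (E10.5) and 4.50 and 24.8 (E9.5) FPKM in yolk sac EC, against 1.51 and 1.75 (E10.5) and 2.00 and 2.43 (E9.5) in embryo EC. Every yolk sac value was above every embryo value, although the yolk sac libraries differed several-fold among themselves. The log2 difference was 2.09 ± 0.38 (limma adjusted p = 0.00149), and the call held in all 16 runs that left out 1 library. Within the E9.5 yolk sac EC, the library with 24.8 FPKM of Hoxc8 had 3579 FPKM summed over 17 mesenchyme, somite and smooth muscle genes. The library with 4.50 FPKM had 822.5. These 17 genes are called the mesenchyme and somite list below. The same libraries differed in other sums too. The library with more Hoxc8 had a higher erythroid sum (36350 against 14250 FPKM). Its endothelial sum (1949 against 3633) and macrophage sum (63.45 against 146) were lower. The part of any of these cells was not tested. The neighbours of Hoxc8 in the RefSeq order, Hoxc6 (−0.09 ± 0.35) and Hoxc9 (−0.21 ± 0.24), were not called (limma adjusted p = 0.864 and 0.540). Away from them Hoxc4 (−1.49 ± 0.23), Hoxc5 (−0.64 ± 0.20), the lumbar gene Hoxc10 (−1.11 ± 0.23) and Hoxc11 (−0.45 ± 0.16) fell, and the calls of Hoxc5 and Hoxc11 were lost in 6 of 16 and 10 of 14 such runs.

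In HE more Hox genes were called between the sites than in EC, though the site by cell type interaction called 0 of 33. In yolk sac HE 30 of 33 Hox genes fell and Hoxc8 rose, where limma called 36.9% of all tested genes, 22.3% lower and 14.6% higher. The 30 again include the genes that entered the tests through embryo libraries. The median log2 difference was −1.47 over the Hox genes and −0.14 over all genes. All 10 HoxA, all 9 HoxB and all 7 HoxD genes fell, with cluster medians of −2.20, −1.27 and −2.03, and in HoxC Hoxc4 (−1.85 ± 0.23), Hoxc5 (−0.67 ± 0.20), Hoxc10 (−1.86 ± 0.23) and Hoxc11 (−0.82 ± 0.16) fell while Hoxc6 (0.23 ± 0.35) and Hoxc9 (−0.000422 ± 0.24) were not called. Of the 38 rows, 28 had all yolk sac HE values below all embryo HE values, 1 above, and 9 overlapped, again without a count over all genes. Without both E10.5 yolk sac libraries labelled HE this contrast rests on E9.5 alone, and 26 of 33 were called. The share of all genes called in that run is not given here, so the count has no background beside it. All 10 HoxA and 7 HoxD calls were kept then, with medians of −2.12 and −1.77, but HoxB kept 4 of 9 (Hoxb1, Hoxb6, Hoxb8 and Hoxb9), with a median of −0.74. With all libraries in the fit, the E9.5 HE contrast called 23 of 33, where 13% of all tested genes were called. When 1 library at a time was left out, 29 of the 31 calls held in every run, Hoxb5 was lost without replicate 2 of the E9.5 yolk sac HE (limma adjusted p = 0.0581) and Hoxc5 was lost in 4 runs. Beside this, 15 of 16 endothelial genes were lower in yolk sac HE (median −1.86), against 2 of 16 in yolk sac EC (Emcn and Sox7, median −0.16), and the part of that shift in the HE result was not tested.

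The largest HE difference was that of Hoxb9, followed by Hoxa7, Hoxa5 and Hoxa9. Hoxb9 had 0.930 and 0.388 (E10.5) and 1.01 and 2.68 (E9.5) FPKM in yolk sac HE, against 25.2 and 25.8 (E10.5) and 21.3 and 21.6 (E9.5) in embryo HE, a log2 difference of −3.53 ± 0.23 (limma adjusted p = 5.66e-07). Hoxa7 had 0.360 and 0.436 (E10.5) and 0.344 and 1.22 (E9.5) FPKM in yolk sac HE, against 12.5 and 13.1 (E10.5) and 10.9 and 12.4 (E9.5) in embryo HE (−3.09 ± 0.18). Hoxa9 had 2.12 and 1.05 (E10.5) and 2.87 and 3.54 (E9.5) FPKM in yolk sac HE, against 17.9 and 22.5 (E10.5) and 28.7 and 27.8 (E9.5) in embryo HE (−2.93 ± 0.20). In each of these the embryo libraries were several times higher than any yolk sac library. Hoxa5 had 0.491 and 0.0940 (E10.5) and 0.940 and 1.24 (E9.5) FPKM in yolk sac HE, against 13.1 and 16.5 (E10.5) and 9.95 and 10.6 (E9.5) in embryo HE (−3.03 ± 0.24). Hoxd9 had 0.552 and 0.197 (E10.5) and 0.794 and 0.769 (E9.5) FPKM in yolk sac HE, against 12.03 and 12.5 (E10.5) and 8.80 and 9.17 (E9.5) in embryo HE (−2.88 ± 0.15). Hoxd3 had 0.245 and 0.329 (E10.5) and 1.11 and 0.985 (E9.5) FPKM in yolk sac HE, against 9.03 and 13.2 (E10.5) and 10.99 and 6.80 (E9.5) in embryo HE (−2.73 ± 0.21). None of these 3 exceeded 1.24 FPKM in a yolk sac HE library.

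Anterior HoxA genes and the rest of HoxD gave the same order of the sites in HE. Hoxa2 had 0.0410 and 0 (E10.5) and 0.219 and 0.474 (E9.5) FPKM in yolk sac HE, against 3.54 and 4.22 (E10.5) and 2.69 and 2.13 (E9.5) in embryo HE (−1.80 ± 0.16). Hoxa3 had 0.346 and 0 (E10.5) and 1.37 and 0.365 (E9.5) FPKM in yolk sac HE, against 9.56 and 11.2 (E10.5) and 8.94 and 5.81 (E9.5) in embryo HE (−2.74 ± 0.28). Hoxa2 and Hoxa3 were both listed at 0 in replicate 2 of the E10.5 yolk sac HE, and no yolk sac library reached an embryo one. Hoxa4 had 0.506 and 0.910 (E10.5) and 1.20 and 0.697 (E9.5) FPKM in yolk sac HE, against 6.78 and 7.40 (E10.5) and 7.13 and 7.29 (E9.5) in embryo HE (−2.17 ± 0.16). Hoxa10 had 1.75 and 0.566 (E10.5) and 1.10 and 1.00 (E9.5) FPKM in yolk sac HE, against 7.81 and 10.7 (E10.5) and 8.32 and 7.93 (E9.5) in embryo HE (−2.22 ± 0.23). Both were separated by site, like the HoxD genes. Hoxd8 had 1.20 and 1.27 (E10.5) and 2.42 and 1.55 (E9.5) FPKM in yolk sac HE, against 8.14 and 12.3 (E10.5) and 8.95 and 9.15 (E9.5) in embryo HE (−2.03 ± 0.19). Hoxd11 had 0 and 0 (E10.5) and 0 and 0.247 (E9.5) FPKM in yolk sac HE, against 3.12 and 3.78 (E10.5) and 5.97 and 5.02 (E9.5) in embryo HE (−2.34 ± 0.18), so it was listed at 0 in 3 of 4 yolk sac HE libraries.

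In HoxB more genes were called lower in yolk sac HE at E10.5 than at E9.5, and in HoxC Hoxc8 again rose. At E10.5, where both yolk sac HE libraries had the low endothelial sums, 9 of 9 HoxB genes fell, with a median of −1.81. At E9.5 3 of 9 fell (Hoxb1, Hoxb6 and Hoxb9), with a median of −0.74, while 9 of 10 HoxA and 7 of 7 HoxD genes fell at that stage. The share of all tested genes called lower in yolk sac HE also differed, at 22.2% at E10.5 and 6.4% at E9.5. A change of the HoxB difference between the stages was not tested within HE alone. Hoxb8 had 6.72 and 1.47 (E10.5) and 14.2 and 10.7 (E9.5) FPKM in yolk sac HE, against 34.7 and 30.6 (E10.5) and 35.2 and 28.4 (E9.5) in embryo HE, with no overlap (−2.12 ± 0.29, limma adjusted p = 1.90e-04), and −1.29 without both E10.5 yolk sac HE libraries. Hoxb2 (−0.68 ± 0.15), Hoxb3 (−1.17 ± 0.29), Hoxb4 (−1.27 ± 0.25), Hoxb5 (−1.05 ± 0.28) and Hoxb6 (−1.01 ± 0.16) fell in yolk sac HE with the stages averaged, and none of them was called in EC. Hoxb2, Hoxb4 and Hoxb5 overlapped between the sites in HE all the same. Without both E10.5 yolk sac HE libraries, so at E9.5 alone, the differences of Hoxb2 (−0.34), Hoxb3 (−1.02), Hoxb4 (−0.64), Hoxb5 (−0.29) and Hoxb7 (−0.72) were not called (limma adjusted p = 0.296, 0.134, 0.222, 0.569 and 0.0618). That of Hoxb6 was −0.74 (limma adjusted p = 0.0435), and its E9.5 HE call was lost in 10 of 16 runs that left out 1 library. Hoxc8 had 39.5 and 28.01 (E10.5) and 16.2 and 26.5 (E9.5) FPKM in yolk sac HE, against 3.26 and 4.24 (E10.5) and 4.30 and 3.23 (E9.5) in embryo HE (2.53 ± 0.38, limma adjusted p = 3.61e-04). Its yolk sac HE values were all several times the embryo ones. Whether the site effect differed between HE and EC was tested as an interaction, and limma called 0 of 33 Hox genes (12 at an unadjusted p under 0.05), where 0.107% of all genes were called. Without replicate 1 of the E10.5 yolk sac HE 3 were called, and without both libraries 0. The median interaction was −0.79 over the 9 HoxB genes and −0.44 over all 33.

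The site contrast was seen at each stage. At E10.5 limma called 20 of 33 Hox genes in EC, 19 of them lower, where 29.5% of all genes were called, 15.9% lower and 13.5% higher. In E10.5 HE it called 30, 29 of them lower, where 35.2% of all genes were called, 22.2% lower and 13% higher. In E9.5 EC it called 20, 19 of them lower, where 10.3% of all genes were called, 4.56% lower and 5.77% higher, and in E9.5 HE 23, 22 of them lower, where 13% were called, 6.4% lower and 6.61% higher. In each of the 4 settings Hoxc8 was the 1 gene called higher in the yolk sac, at 2.28 ± 0.54 in E10.5 EC, 2.86 ± 0.54 in E10.5 HE, 1.89 ± 0.54 in E9.5 EC and 2.20 ± 0.54 in E9.5 HE. Its E9.5 EC call was lost in 13 of 16 runs that left out 1 library. The Hoxc8 difference there was 0.78 without replicate 2 of the E9.5 yolk sac EC (limma adjusted p = 0.244) and 3.01 without replicate 1. Its E10.5 EC call was lost in 1 such run and its E9.5 HE call in 3. Hoxa9 and Hoxb9 fell in all 4 settings and kept these calls in every such run. The E9.5 EC count was 10 without replicate 1 of the E9.5 embryo EC and 13 without replicate 2 of the E9.5 yolk sac EC. A change of the site effect between the stages was called for 0 of 33 Hox genes by limma (9 at an unadjusted p under 0.05), where 5.34% of all genes were called. Leaving out replicate 1 of the E10.5 yolk sac HE gave 4 calls, leaving out both gave 0, and leaving out replicate 2 of the E9.5 yolk sac EC, of the E10.5 yolk sac EC or of the E10.5 embryo EC gave 1 each.

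Genes of other tissues moved with the site contrast. Of 10 neural genes 9 were lower in yolk sac EC, with summed levels of 17.9 to 36.0 FPKM in yolk sac EC against 49.3 to 102 in embryo EC. Of 7 tested nephric genes 5 were lower there, with sums of 1.92 to 4.61 FPKM against 8.18 to 17.2. Somite factors fell, among them Tcf15 (−3.09), Meox1 (−2.68) and Pax1 (−2.03), while the collagen genes Col1a2 (2.55) and Col3a1 (2.29) rose, so that 8 of 17 genes of this mesenchyme and somite list fell and 6 rose. Its sum was 822.5 to 4458 FPKM in yolk sac EC and 2749 to 7602 in yolk sac HE, against 1002 to 1481 in embryo HE and 311 to 1857 in embryo EC. Of 14 visceral endoderm and epithelial genes 13 were higher in yolk sac EC, with sums of 2787 to 7952 FPKM against 46.8 to 829 in embryo EC, and of 11 erythroid genes all 11 were higher, with sums of 14250 to 56020 against 1910 to 10840. Of 7 tested germ cell and pluripotency genes all 7 were lower in yolk sac EC (sums of 4.48 to 12.6 FPKM against 34.4 to 207.1), and of 7 tested macrophage genes 5 were higher. In HE the counts were 10 of 10 lower for neural genes (sums of 7.87 to 23.8 FPKM in yolk sac HE against 58.3 to 103.4 in embryo HE), 7 of 7 lower for nephric genes, 9 lower and 5 higher for mesenchyme and somite genes, 10 of 14 higher for visceral endoderm, 11 of 11 higher for erythroid genes, 7 of 7 lower for germ cell genes and 2 of 7 higher for macrophage genes. Neurog2 and Nanog were listed at 0 in all 4 yolk sac HE libraries, and no neural or nephric gene was at 0 in an embryo library. The part of these cells in the Hox differences was not tested.

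The genes that work with or upstream of the Hox genes were set beside them. Of 4 genes for the PBC partners of HOX proteins 3 fell in yolk sac EC, among them Pbx3 (log2 difference −0.66) and Pbx2 (−0.33). In yolk sac HE 4 of 4 fell, with −0.65 for Pbx3 and −0.47 for Pbx2. Of 5 Meis and Prep genes, which encode partners of the PBC proteins, 1 fell in yolk sac EC (Meis3, −0.68) and 2 in yolk sac HE (Meis3, −1.43, and Meis1, −1.07). Of 8 tested Cdx and axial genes 6 fell in yolk sac EC, led by T, the mesoderm factor brachyury (−1.98), Evx1 (−1.26), Fgf8 (−1.23) and Gdf11 (−1.19), and 7 in yolk sac HE. Cdx2, an activator of trunk Hox genes, was not called in either (EC −0.19, HE 0.19).

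Retinoic acid is a known inducer of anterior Hox genes. Of 12 tested genes of its synthesis, breakdown and reception 5 fell in yolk sac EC and 1 rose. The binding protein genes Crabp1 (−3.75) and Crabp2 (−2.82), the synthesis gene Aldh1a2 (−2.64) and the breakdown gene Cyp26a1 (−2.02) had the largest differences. In yolk sac HE 8 fell and 1 rose. The list's summed level was 122.6 to 164.3 FPKM in yolk sac EC and 99.1 to 130.8 in yolk sac HE, against 362.9 to 516.7 in embryo HE and 266.5 to 341.9 in embryo EC.

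Polycomb proteins keep Hox genes silent and Trithorax proteins keep them active. Of 17 Polycomb genes 6 fell and 2 rose in yolk sac EC. Among them Cbx2 (−1.40), the H3K27 methyltransferase gene Ezh2 (−1.06) and Jarid2 (−1.004) fell and Cbx7 (1.77) rose, and in yolk sac HE 6 fell and 3 rose, again with Cbx7 higher (2.49). Of 12 Trithorax and H3K27 demethylase genes 5 fell in yolk sac EC, led by Psip1 (−0.81) and Dpy30 (−0.80), and 5 fell in yolk sac HE. Of 9 other regulators 2 fell in yolk sac EC, among them the insulator gene Ctcf (−0.60), and 1 rose, and in yolk sac HE 0 fell and 1 rose, with −0.18 for Ctcf. Of the non-coding genes of the clusters, Hoxa11os (−1.11 in EC, −2.20 in HE) and Hoxb3os (−0.70 and −1.76) were tested and fell, the 5 microRNA rows were listed at 0 in every library, and Hotair reached 0.117 FPKM at most. These 2 antisense genes overlap Hoxa11, Hoxb2 and Hoxb3.

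The next comparison set HE against EC at each site. In the yolk sac, with the stages averaged, limma called 4 of 33 Hox genes (12.1%). This is near the share of all genes called, 9.83%, with 6.53% lower and 3.3% higher. Hoxb5 (−1.34 ± 0.28, adjusted p = 0.0168), Hoxb8 (−1.03 ± 0.29) and Hoxb6 (−0.56 ± 0.16) fell in HE and Hoxc9 (0.88 ± 0.24) rose. Hoxb5 had 2.77 and 0.498 (E10.5) and 9.15 and 4.55 (E9.5) FPKM in yolk sac HE, against 8.68 and 7.89 (E10.5) and 15.03 and 8.37 (E9.5) in yolk sac EC, and the E10.5 HE libraries were the lowest while 1 E9.5 HE library lay within the EC range. Hoxc9 had 4.88 and 4.69 (E10.5) and 2.26 and 3.93 (E9.5) FPKM in yolk sac HE, against 1.11 and 2.25 (E10.5) and 0.737 and 2.98 (E9.5) in yolk sac EC, so the E10.5 HE libraries were the highest and the E9.5 ones overlapped EC. Without both E10.5 yolk sac libraries labelled HE this contrast rests on E9.5 alone, and no Hox gene was called. All 16 endothelial genes were lower in HE here, with a median of −1.73, and their part in the Hox result was not tested.

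None of these 4 calls held in every run that left out 1 library. The count was 0 without replicate 1 of the E9.5 yolk sac EC, replicate 2 of the E9.5 yolk sac HE or replicate 1 of the E10.5 yolk sac EC, and 8 without replicate 2 of the E9.5 yolk sac EC. Without replicate 2 of the E10.5 yolk sac HE the Hoxb8 difference was −0.62, and without replicate 1 of the E9.5 yolk sac EC that of Hoxc9 was 0.58. The count was 1 without replicate 2 of the E10.5 yolk sac HE or without any 1 of the E9.5 embryo libraries or the E10.5 embryo HE libraries, and 2 without either E10.5 embryo EC library or replicate 2 of the E10.5 yolk sac EC. Taken by stage, limma called 0 of 33 at E9.5 (0 at an unadjusted p under 0.05 as well, where 0.0143% of all genes were called). At E10.5 it called 4 of 33 (12.1%, against 9.57% of all genes, 6.48% lower). The E10.5 calls were all lower in HE: Hoxb5 (−1.97 ± 0.40), Hoxb8 (−1.84 ± 0.41), Hoxb6 (−0.78 ± 0.22) and Hoxb2 (−0.76 ± 0.21). That count was 0 without either E10.5 yolk sac EC library or replicate 2 of the E10.5 yolk sac HE, and 2 without any 1 of the E9.5 embryo libraries. Without replicate 2 of the E10.5 yolk sac HE the difference was −1.30 for Hoxb5 and −1.02 for Hoxb8.

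**Figure D4:**
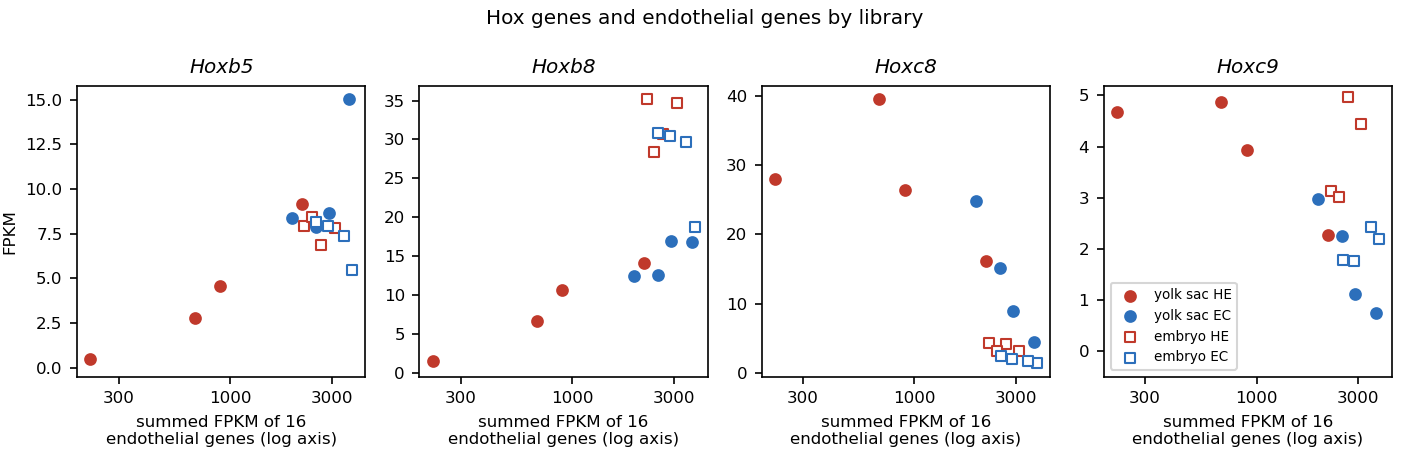
FPKM of 4 Hox genes (y axes) against the summed FPKM of 16 endothelial genes (x axes, log scale) in the 16 libraries, yolk sac as filled circles and embryo as open squares, HE in red and EC in blue. Among yolk sac libraries Hoxb5 and Hoxb8 are low where the endothelial sum is low, and Hoxc8 and Hoxc9 are high there.

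Across the 8 yolk sac libraries Hoxb4, Hoxb5 and Hoxb8 lay in the opposite order to Hoxc8 and Hoxc9 along the endothelial sum. These genes were picked after their values were seen and do not stand for the family. Hoxb5 (Pearson r 0.98, Spearman rho 0.88), Hoxb8 (0.95 and 0.95) and Hoxb4 (0.92 and 0.88) were higher where the log2 sum of the 16 endothelial genes was higher. Hoxc8 (r −0.74, rho −0.98) and Hoxc9 (r −0.85, rho −0.98) were lower there. Without these 2 E10.5 yolk sac libraries labelled HE, over 6 libraries, r was 0.91 for Hoxb5, 0.87 for Hoxb8, 0.65 for Hoxb4, −0.83 for Hoxc8 and −0.89 for Hoxc9. With the log2 sum of the mesenchyme, somite and smooth muscle genes, r was 0.85 for Hoxc8 and 0.79 for Hoxc9 over the 8 libraries (rho 0.79 for both), and 0.76 and 0.67 over 6 (rho 0.49 for both). The libraries share their cell type and stage labels and the FPKM scaling, the relations were computed for 33 genes with 4 marker sums, and they are given as a description.

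In the embryo limma called 0 of 33 Hox genes between HE and EC (15 at an unadjusted p under 0.05, 3 called with array quality weights and 1 with no filter on low values), where 0.631% of all genes were called. Of the 33 differences 31 were above 0, with a median of 0.35 over the Hox genes and 0.03 over all genes. The genes were measured in the same libraries, so their signs are not separate evidence. The signs over all genes are not given here. Hoxb1 had the smallest p, with 0.929 and 1.31 (E10.5) and 3.995 and 3.68 (E9.5) FPKM in embryo HE, against 0.272 and 0.924 (E10.5) and 1.61 and 1.26 (E9.5) in embryo EC (0.71 ± 0.16, limma adjusted p = 0.0753). Its E9.5 HE libraries were above all others, and its E10.5 HE libraries lay within the range of EC. Hoxa9 (0.68 ± 0.20, adjusted p = 0.145) and Hoxa7 (0.64 ± 0.18, adjusted p = 0.137) were not called, and neither was Hoxc4, with the highest difference (0.79 ± 0.23, adjusted p = 0.150 by limma). Leaving out replicate 2 of the E10.5 embryo EC gave 1 call. Beside this, the mesenchyme and somite genes had a median of 0.65 with 0 of 17 called, with sums of 1002 to 1481 FPKM in embryo HE against 311 to 1857 in embryo EC, Ret of the nephric list (0.99) and Pax6 of the neural list (0.80) rose in HE, and so did the HOX partner gene Meis1 (1.00). Of the 7 tested germ cell genes 4 fell in HE, Dppa5a (−2.55), Pou5f1 (−2.46), Dppa3 (−2.17) and Nanog (−1.12). The part of those cells was not tested. By stage, limma called 0 of 33 at E10.5 (5 at an unadjusted p under 0.05, 0.208% of all genes called) and 0 of 33 at E9.5 (7 at an unadjusted p under 0.05, 2 called with array quality weights, 0.158% of all genes called).

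**Figure D5:**
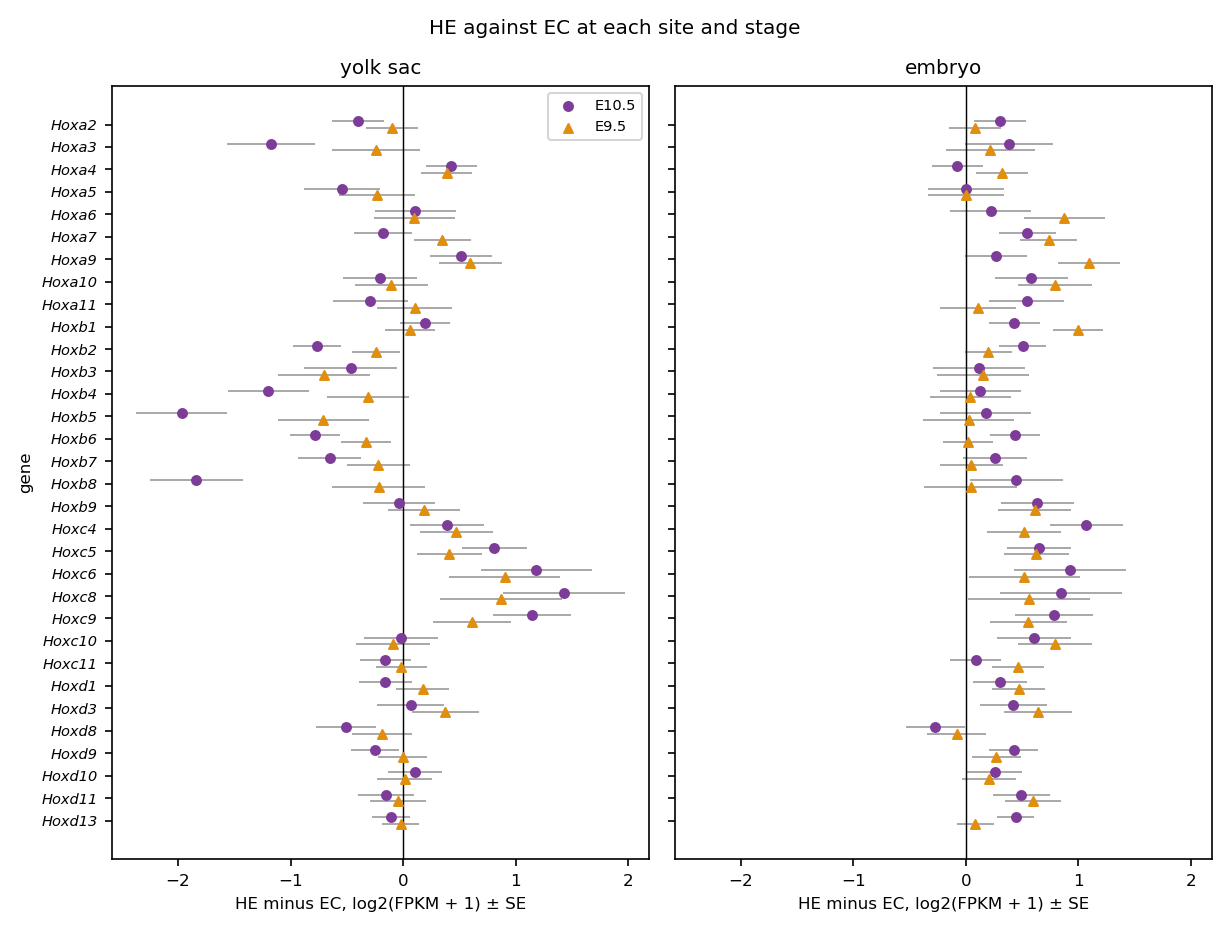
HE minus EC on the log2(FPKM + 1) scale with its SE for tested Hox genes, in the yolk sac (left) and the embryo (right), E10.5 as circles and E9.5 as triangles. In the yolk sac Hoxb2 to Hoxb8 lie below 0 and Hoxc4 to Hoxc9 above 0 at both stages. Of these only Hoxb2, Hoxb5, Hoxb6 and Hoxb8 were called, at E10.5, and none was called at E9.5. In the embryo nearly all points lie at or above 0, though none was called there.

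Between the stages, the anterior genes Hoxb1 and Hoxb2 fell in the embryo, though the Hoxb2 call was lost in 10 of 16 runs that left out 1 library. At E10.5 limma called 3 of 33 Hox genes lower in the embryo, with the cell types averaged, where it called 5.92% of all genes, 3.26% lower. Among them were Hoxb1 (log2 difference −0.92 ± 0.16, limma adjusted p = 0.00564) and Hoxb2 (−0.59 ± 0.15, 0.0404). Hoxb1 had 0.929 and 1.31 (HE) and 0.272 and 0.924 (EC) FPKM at E10.5, against 3.995 and 3.68 (HE) and 1.61 and 1.26 (EC) at E9.5, and 1 E10.5 HE library lay just above the lowest E9.5 EC library. Hoxd1 had −0.62 ± 0.17 (adjusted p = 0.0506 by limma) and was not called. Beside them the retinoic acid breakdown gene Cyp26a1 (−2.55), Cdx2 (−1.37), Cdx4 (−0.95) and the presomitic gene Tbx6 (−1.04) fell, Cdx2, Cdx4 and Tbx6 being the 3 called of 8 tested Cdx and axial genes. Of the marker lists, 6 of 10 neural genes and 4 of 7 germ cell genes rose and 4 of 14 visceral endoderm and epithelial genes fell at E10.5, and their part was not tested. The Hoxb1 call held in every run that left out 1 library, while the count was 1 without any 1 of the E9.5 embryo libraries, without replicate 1 of the E10.5 embryo EC or without replicate 2 of the E10.5 embryo HE.

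In the yolk sac limma called 6 of 33 Hox genes lower at E10.5, where it called 9.02% of all genes, 5.63% lower. Among these were Hoxb5 (−1.03 ± 0.28), Hoxb4 (−0.95 ± 0.25), Hoxb2 (−0.85 ± 0.15), Hoxb7 (−0.73 ± 0.20) and Hoxa9 (−0.69 ± 0.20). Hoxb2, a gene of the middle hindbrain segments, had 6.31 and 4.72 (HE) and 10.47 and 9.51 (EC) FPKM at E10.5, against 15.5 and 10.9 (HE) and 15.7 and 15.4 (EC) at E9.5, so the groups did not overlap and the E10.5 HE libraries were the lowest (limma adjusted p = 0.00784). Its call held in every run that left out 1 library. Without both E10.5 yolk sac libraries labelled HE the stage contrast rests on EC alone, and no Hox gene was called. The count was 1 without any 1 embryo library, without replicate 1 of the E9.5 yolk sac EC, the E9.5 yolk sac HE or the E10.5 yolk sac EC, or without replicate 2 of the E10.5 yolk sac HE. It was 2 without replicate 2 of the E10.5 yolk sac EC and 3 without replicate 2 of the E9.5 yolk sac HE. Of the 16 endothelial genes 3 fell at E10.5 in the yolk sac (Erg −1.55, Fli1 −1.25 and Tek −1.23). Of 7 tested macrophage genes 4 rose, with a list median of 1.15: C1qb (2.17), C1qc (1.49), C1qa (1.28) and Csf1r (1.15). Of 17 mesenchyme and somite genes Col1a2 rose (1.89) and Col1a1 (−4.55) and Twist1 (−0.84) fell, and of 14 visceral endoderm and epithelial genes Apoa4 rose (1.55). The part of these shifts in the Hox calls was not tested.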

How the data were processed

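RNA-seq of 16 sorted-cell libraries (8 groups of 2) was analysed from the deposited gene table, whose values are FPKM made by the authors. The submitters' processing notes name Cufflinks, featureCounts and the mm9 build, without versions or settings; the sources used here do not give strand use. Read depth is unknown: steps of low values gave a relative depth for 9 of 15 libraries, 0.67 to 0.99 of the library they were set against, and no interval could be formed. log2(FPKM + 1) was fitted for 13955 of 33531 genes (at least 1 FPKM in 2 or more libraries) as 8 group means with limma 3.58.1 in R 4.3.3 (empirical Bayes with a trend, 8 residual degrees of freedom), with Benjamini-Hochberg adjustment over all tested genes in each of 16 comparisons; the script was tested on simulated data. Values in every library were given for the members called in the most comparisons and the most abundant member of each cluster. Log2 differences were given for only part of the called members, not always the largest. Those members and the other named ones were chosen after their values were seen. Of the other lists, the text names up to 4 called genes per list and comparison. Some genes that enter the fits, sums and counts are not reported or drawn here. Members and gene lists were chosen with earlier results of these data known. Alternatives were another pseudocount, no filter, median-ratio scaling, array quality weights, fits of the compared groups only, a replicate block, and leaving out libraries. Promoters came from RefSeq tables (GRCm38.p6).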

Additional observations from a re-analysis of the deposited data

How the results depend on the processing

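The counts of Hox genes called between yolk sac and embryo moved by at most 1.5 times under every alternative other than leaving out single libraries, except for 12 called in E9.5 EC when only the groups compared entered the fit. The smaller counts moved more. For HE against EC in the yolk sac the count was 2 with a pseudocount of 0.1, 1 with no filter, 1 with array quality weights and 0 with only the groups compared, and in its E10.5 part 7, 2, 0 and 0. For HE against EC in the embryo it was 1 with no filter and 3 with weights, and 2 with weights in its E9.5 part. For E10.5 against E9.5 it was 1 in the embryo with a pseudocount of 0.1, and in the yolk sac 1 with no filter, 1 with median-ratio scaling, 1 with weights and 0 with only the groups compared. For site by stage it was 1 with a pseudocount of 0.1, 2 with no filter, 1 with scaling and 1 with weights. Without both E10.5 yolk sac libraries labelled HE, HE against EC (then E9.5 alone) and E10.5 against E9.5 (then EC alone) in the yolk sac gave 0. E10.5 yolk sac HE comparisons have no value in that run, and 15 of 133 single calls were lost. The cause of these moves was not tested.

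With the replicate number as a block, site by stage gave 1 call and no other count moved by over 1.5 times. The labels do not say that a number marks a shared litter or day: same-numbered libraries of 28 pairs of groups had correlated deviations over 0.1 in 8 pairs (lowest −0.26, median 0.03, highest 0.38).

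Leaving out 1 library at a time gave these ranges of called Hox genes. Yolk sac against embryo gave 22 to 26 in EC, 28 to 31 in HE, 15 to 21 in E10.5 EC, 25 to 30 in E10.5 HE, 10 to 22 in E9.5 EC and 18 to 26 in E9.5 HE. HE against EC gave 0 to 8 in the yolk sac, 0 to 1 in the embryo, 0 to 6 in the E10.5 yolk sac, and 0 to 0 in the E9.5 yolk sac and both embryo stages. E10.5 against E9.5 gave 1 to 8 in the yolk sac and 1 to 4 in the embryo, and the interactions gave 0 to 3 for site by cell type and 0 to 4 for site by stage.

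Of 167 calls of single Hox genes, the alternatives lost 4 under the block, 9 with a pseudocount of 0.1, 9 with scaling, 16 with weights, 19 with no filter and 40 with only the groups compared, and no call changed sign. Scaling moved the median difference of all genes to −0.02 in HE, against −0.14 unscaled, and to −0.03 in EC, against −0.10. Depth in reads is unknown, so genes under 1 FPKM carry an unstated counting error.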
